A study of Homo sapiens with 9 samples.

Results

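The genes of the cytosolic ribosomal proteins, the protein parts of the ribosomes that translate nuclear-encoded messages, were followed in RNA bound by the nuclear and the cytoplasmic poly(A) binding protein. Members were taken by symbol from the protein coding genes of the deposited tables: RPL or RPS and a number, with an optional L, A, X or Y suffix and digits, or RPLP0, RPLP1, RPLP2 and RPSA. The rule found 87 genes of the 51105 listed in both tables, 53 of the large and 34 of the small subunit, and used no measured value. All cells were wildtype HEK293T, an established line from human embryonic kidney, crosslinked in 0.1% formaldehyde for 10 min. The groups, taken from the sample titles, were Input (no immunoprecipitation, n = 3), PABPN RIP (n = 3) and PABPC RIP (n = 3). RIP, RNA immunoprecipitation, recovers the RNA held by a protein with an antibody to that protein. Each of the 3 biological replicates gave 1 lysate that was shared between the antibodies, and an immunoprecipitation with an unrelated antibody was not analysed here. RNA depleted of ribosomal RNA was sequenced with a stranded kit as single reads of 75 nt.

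PABPN covers the poly(A) tails of nuclear RNA, and PABPC those of cytoplasmic RNA, where it also takes part in translation and in the control of message decay. Ribosomal protein messages are short, abundant and stable, their genes have few and short introns, and many of those introns carry small nucleolar RNAs (snoRNAs). Most begin with a cytosine and an unbroken run of pyrimidines, the terminal oligopyrimidine (TOP) motif, through which the kinase mTOR and the protein LARP1 control their translation. The genome also holds many processed pseudogenes, which are intronless copies of these messages.

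The deposited measure was a mean per gene over the 6 libraries of each table, 3 inputs and 3 RIPs, of reads divided by a size factor that levels library depth. The same inputs stood in both tables, at a scale of 0.855 in the PABPC table relative to the PABPN table. Throughout, the mean ratio is the mean in the PABPC table over that in the PABPN table after this scale was removed. It equals (1 + PABPC RIP over input) divided by (1 + PABPN RIP over input). A mean ratio above 1 therefore marks a PABPC RIP mean above the PABPN RIP mean, and a ratio of at least 2 marks a PABPC RIP mean at or above the input mean. Since size factors level the libraries, every ratio is relative to the other genes and not an amount of RNA per cell. In lysates of many cells, fewer cells with a message and fewer copies per cell cannot be told apart. Introns and exons were counted together, so values describe spliced and unspliced RNA at once.

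Size factors read from genes with 1 read ran from 0.783 to 1.22 over the 9 libraries and both tables. Reads assigned to genes were estimated at 34.2 to 53.3 M if every library of a table had the same normalised total. This is not the sequencing depth, and an input has an estimate in each table. Input library a came to 47.0 M in the PABPN table and 53.3 M in the PABPC table. For genes of low to medium mean, the whole reads of each library could be worked out from the 2 deposited means, which gave the replicate error of the mean ratio. Over 2657 genes with reads per library and means of at least 250 in both tables, the standard error (SE) of the log2 mean ratio had a median of 0.0685 and a 95th percentile of 0.159. Most ribosomal protein genes have higher means, for which the 3 replicates could not be separated, so their ratios are given without a test. All 7 markers of the line (NEFL, NEFM, INA, VIM, PAX2, KRT8 and KRT18) had means above 50 in both tables, and 0 of 6 markers of blood, liver, fibroblast and muscle cells did.

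Ribosomal protein genes as a group were recovered more with PABPC than with PABPN, relative to other genes. Of the 83 members with means above 50 in both tables, 81 (97.6%) had a mean ratio of at least 2, against 12.2% of all 14581 genes above this minimum. All 83 had a ratio above 1, against 48.1% of all genes. None had a ratio of 0.5 or below, against 1.18% of all genes. The median log2 mean ratio of the members was 1.86, a ratio of 3.63, while that of all genes was -0.035 and that of the 12452 protein coding genes 0.060. The quartiles of the members were 1.70 and 1.99 on the log2 scale. Those of all genes were -0.48 and 0.54, so the members filled a narrow band at the upper end of the range.

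**Figure D1:**
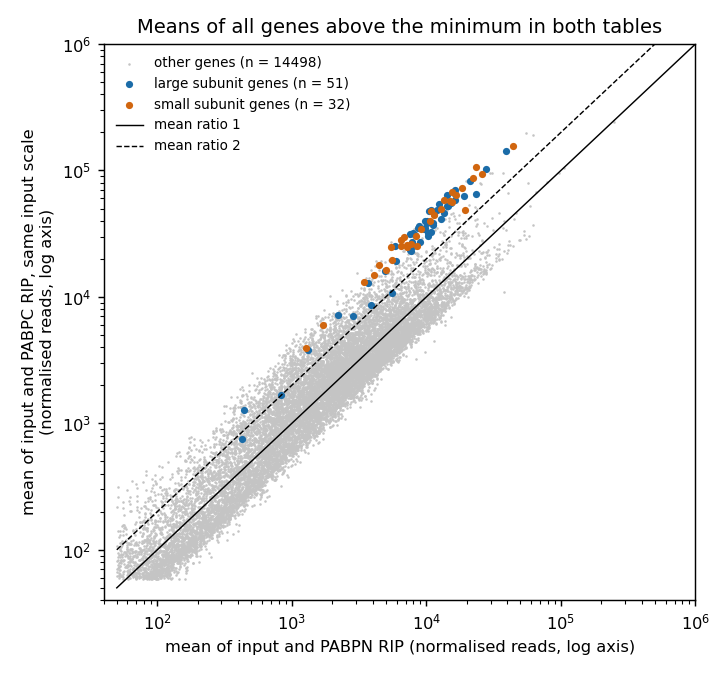
Mean of input and PABPN RIP against mean of input and PABPC RIP, both in normalised reads on log axes and on 1 input scale, for the 14581 genes above the minimum in both tables. Large subunit genes (n = 51) are blue, small subunit genes (n = 32) orange and other genes grey; 81 of the 83 members lie on or above the dashed line of mean ratio 2, and the other genes spread on both sides of the solid line of mean ratio 1.

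A ratio of R implies that the PABPC RIP mean was at least R - 1 times the input mean, whatever the PABPN RIP mean was. For the median member, the PABPC RIP mean was thus at least 2.63 times the input mean. Summed over the members, the ratio was 3.69 and this bound 2.69. The 87 genes made up 2.013% of all normalised reads in the PABPN table, input included, and 6.633% in the PABPC table.

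The ratio differed among the members by less than it did among genes in general. Among the members described here, RPLP1, an acidic protein of the stalk that recruits the elongation factors (chr15:69452814-69456205, hg38), led the order, with means of 10418 and 40510 normalised reads in the PABPN and PABPC tables and a ratio of 4.55. RPL18 followed with means of 10752 and 41602 and a ratio of 4.53. RPS21 had means of 5465 and 21081 and a ratio of 4.51. RPL8 came next with a ratio of 4.48 and RPL36 with 4.43, so the log2 ratios of these 5 lay closer together than the median SE of a single gene. Both subunits were present among them. Ratios of at least 4 were found in 20 members, against 90 genes in all.

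Among the members above the minimum, the 6 lowest were RPL39L, RPL7L1, RPL22L1, RPL22, RPL41 and RPS24. RPL39L, a paralog known for its use in male germ cells, had means of 425 and 645 and a ratio of 1.78. RPL7L1, a paralog of RPL7, had means of 5569 and 9206 and a ratio of 1.93. These were the only members above the minimum with a ratio below 2, and RPL22L1 stood just above it at 2.02, with means of 835 and 1441. The other 3 of the lowest were no paralogs with a suffix. RPL22, whose loss is known from leukaemias, had means of 3864 and 7327 and a ratio of 2.22. RPL41, the smallest ribosomal protein, had means of 2846 and 5987 and a ratio of 2.46. RPS24, one of the genes of Diamond-Blackfan anaemia, had means of 19454 and 41739 and a ratio of 2.51. Even these exceeded most genes, since the lowest member stood at the 83.8th percentile of all genes and 77 of the 83 stood above the 95th.

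**Figure D2:**
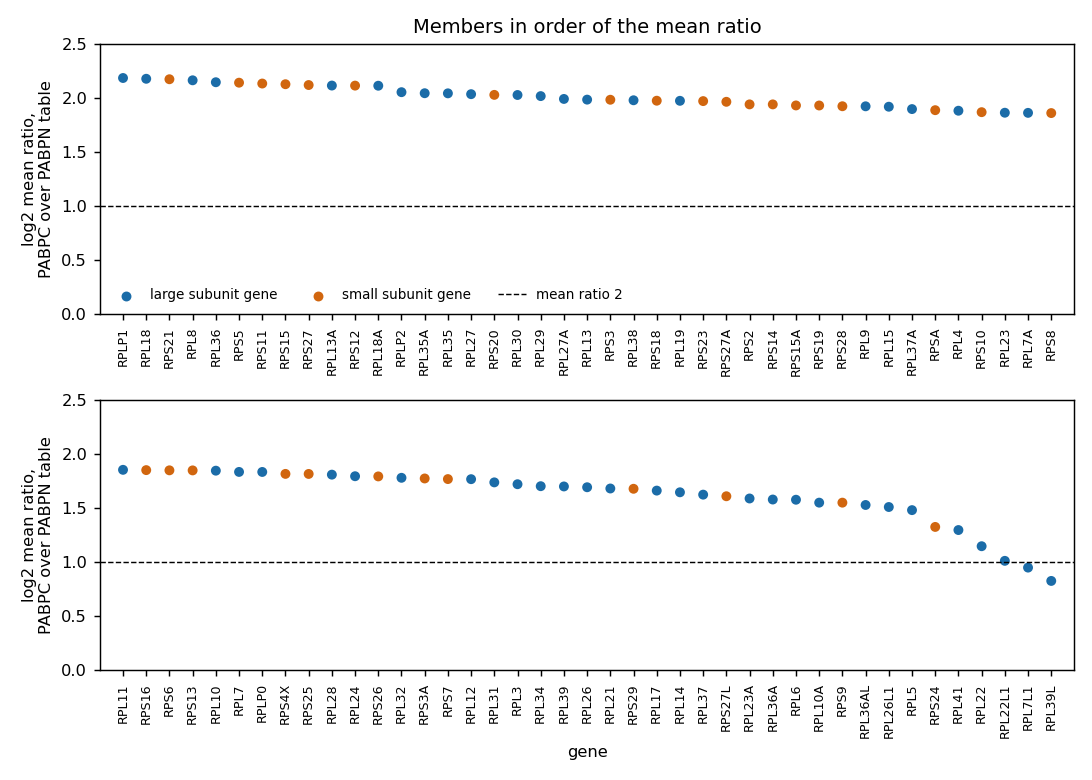
Log2 mean ratio (PABPC table over PABPN table) of 82 of the 83 members above the minimum, in order from the highest in the upper panel to the lowest in the lower panel, with large subunit genes in blue and small subunit genes in orange. The order falls slowly from 2.19 at RPLP1 and drops at its end, from RPS24 to RPL39L at 0.83, where 2 genes lie below the dashed line of mean ratio 2.

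Members of both subunits were found along the whole order except at its lower end, where large subunit genes took 5 of the 6 last places. The median log2 mean ratio was 1.84 over 51 large subunit genes and 1.93 over 32 small subunit genes. The quartiles were 1.64 and 1.99 for the large and 1.82 and 1.995 for the small subunit, so most of the small subunit's quartile range lay within that of the large subunit, which reached lower. The lower tail of the large subunit held most of the paralogs with a suffix. Without these paralogs, the medians were 1.85 over 46 large subunit genes and 1.93 over 31 small subunit genes. Genes of a subunit are not replicates of a condition, so the difference between the medians was not tested.

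Some members were looked up for their roles after the values had been seen. The 3 proteins of the stalk were spread from RPLP0 at 3.57, its base, through RPLP2 at 4.15 to RPLP1. RPL5 and RPL11 bind the ribosomal 5S RNA together and can restrain the p53 regulator MDM2, yet RPL5 had a ratio of 2.80 and RPL11 one of 3.62. RPS6, the target of the S6 kinases, had a ratio of 3.61. RPS19, the gene most often affected in Diamond-Blackfan anaemia, had one of 3.81. FAU, which the rule for symbols leaves out, encodes RPS30 as a fusion with a ubiquitin-like protein. Its ratio was 4.19, with means of 4609 and 16501. RPS27A, made as a fusion with ubiquitin, is a member and had a ratio of 3.90.

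Levels were compared between genes only per length, as the mean of both tables on the input scale of the PABPN table, divided by the deposited gene length in kb. For members such as RPS12 and RPS27L this length covers exons only, whereas reads of introns were counted too. The level of a gene with many intronic reads is therefore overstated. RPS12 had the highest level, 56134 normalised reads per kb, with a mean ratio of 4.33. RPL7A, whose gene hosts 4 snoRNAs, had 40796 per kb and a ratio of 3.64. RPS4X, on chromosome X, had 34296 per kb and a ratio of 3.53. The lowest levels among members above the minimum were those of paralogs: 295 per kb for RPS27L, 571 for RPL39L and 614 for RPL22L1. The level of RPS27L was divided by a deposited length of 8825 bases. Its means, 1285 and 3356, were higher than those of RPL39L and RPL22L1. Across the 83 members, the log2 mean ratio and the level per length were ranked alike in part (Spearman's rho 0.542, and 0.448 over the 77 members without paralogs with a suffix). Both values are made from the same means, so this is a description. With the mean in the PABPN table, not divided by length, rho was 0.327, and 0.184 over the same 77 members.

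The paralogs with an L suffix were paired with the member of the same symbol stem, and 6 pairs had both genes above the minimum. In 6 of 6 pairs the gene without the suffix had the higher mean ratio. The difference was 0.89 on the log2 scale for RPL7 over RPL7L1 and 0.87 for RPL39 over RPL39L. For RPS27 over RPS27L, a paralog induced by p53, it was 0.51. These 3 differences were above the 95th percentile of the SE of 1 gene. It was 0.18 for RPL26 over RPL26L1 and 0.14 for RPL22 over RPL22L1, both near that percentile. For RPL36A over RPL36AL it was 0.051, below the median SE. A difference carries the error of both genes, and this SE came from genes of lower mean than most of these. The pair differences were therefore not tested. RPL36A and RPL36AL were also the pair with near equal levels per length, 3849 and 3816 normalised reads per kb. This rests on their deposited lengths, 3965 and 676 bases. The means were 7646 and 19556 for RPL36A and 1327 and 3277 for RPL36AL. In the other pairs the level of the gene without the suffix was 2.17 (RPL22) to 60.0 (RPS27) times that of its paralog. Part of the latter gap is length, 1028 bases for RPS27 and 8825 for RPS27L. The means were 6807 and 25301 for RPS27 and 1285 and 3356 for RPS27L. RPL22 and RPL22L1, which are known to regulate each other, both stood among the 6 lowest ratios.

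**Figure D3:**
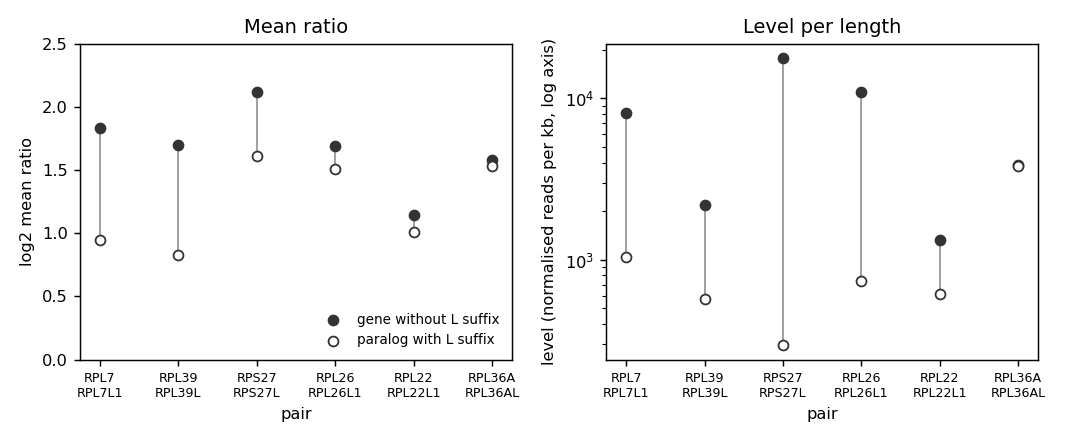
Log2 mean ratio (left) and level in normalised reads per kb on a log axis (right) for the 6 pairs with both genes above the minimum; filled points are the genes without the L suffix, open points their paralogs, and lines join a pair. The filled point is the higher one in both panels for 6 of 6 pairs, by 0.89 on the log2 ratio scale for RPL7 and by 0.051 for RPL36A.

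The remaining paralogs were hardly present. RPL3L, which replaces RPL3 in muscle, had means of 25.4 and 20.3 and did not reach the minimum, while RPL3 had means of 19145 and 54017 and a ratio of 3.30. RPL10L, a retrogene of RPL10 used in the testis, was listed at 0 with PABPN and at 0.189 with PABPC. RPL10 itself, also on chromosome X, had means of 9812 and 30196 and a ratio of 3.60. RPS4Y1 and RPS4Y2, the Y-linked partners of RPS4X, were below the minimum in both tables. These 4 genes were all the members that the minimum left out, and no member was listed in 1 table only.

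For 3 autosomal members, all paralogs, the reads of each library could be recovered, so both RIPs could be set against input directly. Libraries are named a, b and c within a group because their replicate numbers were not known. RPL26L1 (chr5:172958729-172969771, hg38), which differs from RPL26 at few residues, had 521, 593 and 628 reads in the inputs. In the PABPN RIPs it had 327, 285 and 252 reads, and in the PABPC RIPs 1747, 1672 and 1133. After adjustment for library size this came to 617 ± 101 (SD, n = 3) in input, 270 ± 22.7 in PABPN RIP and 1912 ± 275 in PABPC RIP. Every PABPC RIP library lay above every input library, as in 42.7% of the 5633 genes tested this way, and every PABPN RIP library lay below, as in 20.3% of them. PABPC RIP over input was 3.10-fold, a log2 difference of 1.63 with an SE of 0.14 and a limma adjusted p of 5.3e-07. In the PABPN RIP it fell by 1.18 on the log2 scale (SE 0.14, limma adjusted p 4.59e-05), to 0.438 of input. Of these genes, 35.9% were called higher with PABPC and 7.10% lower with PABPN, at an adjusted p of at most 0.01 and a log2 difference beyond 0.5. When 200 altered pairs of means were tried for RPL26L1, 2 also gave a solution. Its higher mean, 1081, lies in the range from 1000 to 1200, in which 6.01% of altered means gave a solution and 16 of 466 genes had more than 1. Its reads are thus less certain than those of RPL39L, for which 0 of 200 altered pairs gave a solution.

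RPL39L (chr3:187120948-187180908, hg38) had 536, 386 and 407 reads in the inputs, 393, 390 and 443 in the PABPN RIPs and 1087, 770 and 654 in the PABPC RIPs. The adjusted values were 464 ± 50.8 (SD, n = 3) in input, 385 ± 42.1 in PABPN RIP and 1044 ± 81.0 in PABPC RIP. The PABPC RIP libraries stood apart from all others, whereas input and PABPN RIP libraries overlapped. All PABPC RIP libraries lay above all inputs in 42.7% of the 5633 tested genes. PABPC RIP over input was 2.25-fold (log2 1.17, SE 0.12, limma adjusted p 2.06e-06). PABPN RIP over input was 0.83 and did not pass the threshold (log2 -0.27, SE 0.12, limma adjusted p 0.0849). The gene with the lowest mean ratio of the members above the minimum was therefore also enriched in PABPC RIPs. The same call was made for 35.9% of the tested genes. PABPC RIP over PABPN RIP was 1.44 on the log2 scale for RPL39L (limma adjusted p 3.3e-07) and 2.81 for RPL26L1 (limma adjusted p 7.58e-09), and 27.9% of the tested genes were called higher in this comparison.

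RPL3L had 31, 25 and 27 reads in the inputs, 22, 25 and 22 in the PABPN RIPs and 22, 6 and 16 in the PABPC RIPs. The adjusted values were 29.1 ± 1.71 (SD, n = 3) in input, 21.7 ± 2.40 in PABPN RIP and 18.3 ± 8.93 in PABPC RIP. The input libraries were the highest, and both RIPs overlapped. As its means were under the minimum, RPL3L was not tested.

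**Figure D4:**
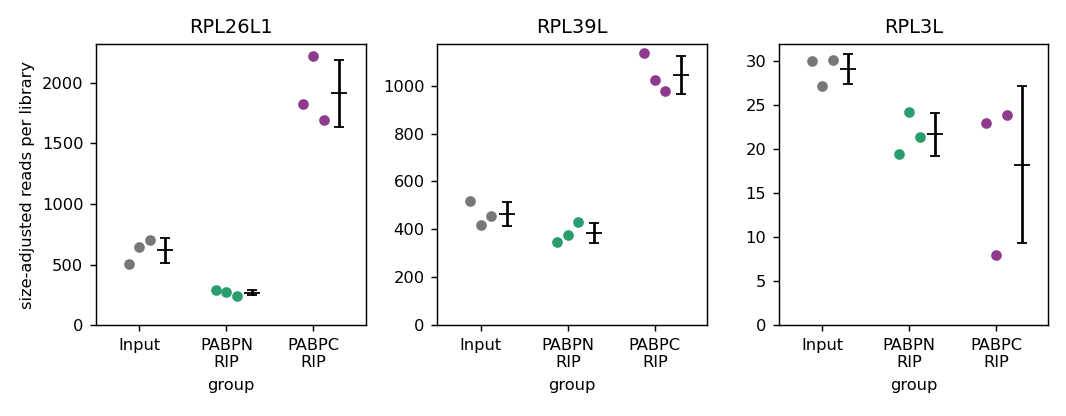
Size-adjusted reads of RPL26L1, RPL39L and RPL3L in each of the 9 libraries, with the mean and SD of each group (n = 3) beside the points; each panel has its own axis, starting at 0. PABPC RIP libraries lie above all input libraries for RPL26L1 and RPL39L and below them for RPL3L.

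The start of each message was then looked up to see whether the TOP motif went with the ratio. RefSeq sequences around annotated starts (GRCh38.p14) were available for 70 of the 87 members. Where a symbol had several starts, the one with the longest run of pyrimidines from an initial C was used. This held for members and other symbols alike, so symbols with more starts had more chances to carry the motif. At 48 of the 70 members (68.6%), the sense strand began with a C and at least 4 more pyrimidines. The share was 5.14% of all 27305 symbols. The median log2 mean ratio was 1.86 for the 47 of the 48 above the minimum and 1.78 for the 20 with another start. Shown are starts of members with high ratios (RPLP1, RPL18, RPS21), with the second highest level (RPL7A), with low ratios (RPS24, RPL22, RPL22L1, RPL7L1) and of paralog pairs. Each line gives 10 bases before and 15 bases from the start, 5′ to 3′, and capitals mark the run of pyrimidines from the start where it began with C and counted 5 or more.
RPLP1 (chr15:69452808-69452832, plus strand): ggcgcgagagCCCCTTTCCTCagct
RPL18 (chr19:48619164-48619188, minus strand): agcccgttctCTCTTTCCggacctg
RPS21 (chr20:62387093-62387117, plus strand): ctagctgcttCCTTTCTCTCTCgcg
RPL7A (chr9:133348208-133348232, plus strand): attccctttcCTTTCTCTCTCCTCC
RPS24 (chr10:78033853-78033877, plus strand): aatcgtggttCTCTTTTCCTCCTTg
RPL7L1 (chr6:42879606-42879630, plus strand): gtgcggcgccgtagctaggagcgga
RPL22 (chr1:6199581-6199605, minus strand): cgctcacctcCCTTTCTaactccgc
RPL22L1 (chr3:170870181-170870205, minus strand): ccgtagcttcCTCTCTgctctcgcg
RPL26 (chr17:8383179-8383203, minus strand): gcgtgtagttCTCTTCCCTTTTgcg
RPL26L1 (chr5:172958719-172958743, plus strand): tccaggggtcggcgaacgaaacgcg
RPS27 (chr1:153990752-153990776, plus strand): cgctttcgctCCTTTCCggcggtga
RPS27L (chr15:63157463-63157487, minus strand): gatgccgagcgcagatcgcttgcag
RPL36A (chrX:101391001-101391025, plus strand): ctcgcggtttCTTTCTTTCCgcgcc
RPL36AL (chr14:49620612-49620636, minus strand): tcttccctttcctgttaggcgagag

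RPLP1, RPL18 and RPS21, near the top of the order, and RPS24, near its end, all had the motif, so high and low ratios occurred with it. In the 4 pairs shown, the gene without the suffix carried the run, and of the paralogs RPL22L1 did. RPL26L1, RPS27L and RPL7L1 had no pyrimidine run at the annotated start. A start that lies a few bases from the true one would hide the motif, and its part in the ratio was not tested.

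Gene structure moved with the ratio. The median member had 2410 non-exonic bases in GENCODE release 44, against 31523 for the other protein coding genes above the minimum. Non-exonic bases are those of the gene span outside the exons of every annotated transcript. They are not the intron length of 1 transcript, and came to 0 for RPL18 and 74151 for RPL37A. Over 12450 protein coding genes with a position, the log2 mean ratio and the non-exonic length were ranked in opposite order (Spearman's rho -0.601), and rho was -0.353 over the 83 members. Of 1496 other protein coding genes with a non-exonic length between the quartiles of the members (922 and 6319 bases), 38.4% had a ratio of at least 2 and the median log2 ratio was 0.77. That median lay above the 0.054 of all other protein coding genes and below the 1.86 of the members. With the deposited length matched in the same way, 21.5% of 4002 other protein coding genes reached 2. Among 6371 other protein coding genes with a mean in the PABPN table of at least 1716, the lowest of the members without the paralogs with a suffix, 9.32% did. RPL22, among the lowest ratios, has 19705 non-exonic bases, and RPL41, with a ratio near it, has 270. The 28 members that host a snoRNA gene, 60 such genes in all, had a median log2 ratio of 1.86, and the 55 others above the minimum one of 1.85.

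The members lie on 22 chromosomes, and chromosome 19 has the most, with 12. Of these 12, 7 had a ratio of at least 4, among them RPL18 and RPL36, while 13 of the 71 on other chromosomes did. At the same cut-off stood 9 of 848 other protein coding genes on chromosome 19 and 48 of 11519 elsewhere. The median log2 ratio of the members was 2.11 on chromosome 19 and 1.85 elsewhere. The comparison was chosen after the values had been seen. Among the other protein coding genes, the median was 0.22 on chromosome 19 and 0.044 elsewhere, so the difference pointed the same way.

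Genes of related functions were set beside the members and beside all genes above the minimum, of which 12.2% had a ratio of at least 2. All 77 genes of the mitochondrial ribosomal proteins, which are translated in the cytosol and then imported, were above the minimum, and 47 (61%) had a ratio of at least 2, with a median log2 ratio of 1.19. Their spread was wider than that of the cytosolic proteins, from 2.20 for MRPL41 to -0.69 for MRPS25. Of 18 TOP messages of translation, 12 (66.7%) reached 2, with a median of 1.44. In this list the elongation factor subunit EEF1G stood at 2.06 and EEF1A1 at 1.86, in the band of the ribosomal proteins, whereas the helicase EIF4A2 stood at 0.018. Of 22 ribosome biogenesis factors, 5 (22.7%) reached 2, with a median of 0.53. The highest of these were NOP10 at 2.15 and NHP2 at 2.02, small proteins of the particle that makes pseudouridine. Of 10 kinases named for ribosomal S6, RPS6KB2 alone (10%) reached 2, near the share of all genes. The median of the kinases was -0.22, below that of all genes. The proteins of the cytosolic ribosome thus had a higher median ratio than each list of factors that build, regulate or use it.

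**Figure D5:**
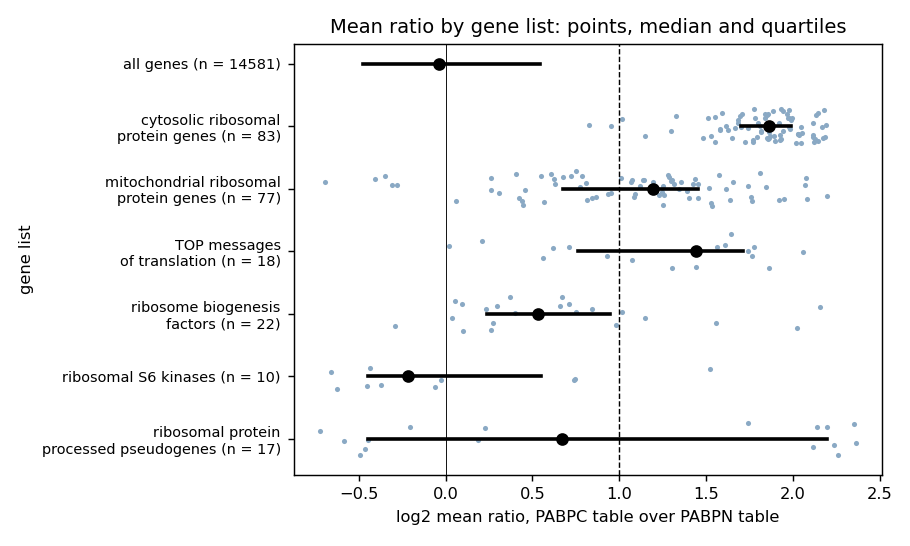
Log2 mean ratio by gene list, for genes above the minimum; points are genes (not drawn for all genes), the black dot is the median and the black bar runs from the first to the last quartile. The dashed line marks a mean ratio of 2. The cytosolic ribosomal protein genes have the narrowest quartile range of the lists drawn, with a median of 1.86, and the mitochondrial ones spread from -0.69 to 2.20.

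Reads of a processed pseudogene and of its parent cannot always be told apart. Of 980 processed pseudogenes of ribosomal proteins listed, 17 were above the minimum. Of these, 8 (47.1%) had a mean ratio of at least 2, against 12.2% of all genes. The 17 fell to both ends. RPL4P4, RPL13P12 and RPLP0P6 had log2 ratios of 2.36, 2.35 and 2.24, above those of all members. RPL23AP53, RPL13P5 and RPSAP52 had -0.46, -0.49 and -0.72. The means of these pseudogenes were low beside those of their parents: RPL4P4 had 51.1 and 224 and RPL4 27664 and 87207. Among the members, 29 had a pseudogene of their own symbol above the minimum in at least 1 table. Of the 54 without one, 52 had a ratio of at least 2, with a median log2 ratio of 1.86. These 54 still include members with many pseudogenes below the minimum, such as RPL21 with 57 listed. Between the log2 mean ratio and the number of pseudogenes listed, Spearman's rho was -0.109 over the 83 members. It was -0.36 over the 77 without paralogs with a suffix. Whether shared reads moved the ratios was not tested.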

How the data were processed

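RNA of 3 inputs, 3 PABPN RIPs and 3 PABPC RIPs was sequenced. Per the labels and methods, the authors aligned reads to hg38 with STAR, counted introns and exons per gene with featureCounts 2.0.2 against a modified GENCODE annotation, removed stretches shared by genes and genes reached by upstream transcription, and compared each RIP with input in DESeq2. The deposited signal, baseMean, is the mean of size-adjusted reads over the 6 libraries of a table; the deposited Length is in bases. The fold change, its error, Wald statistic, p and adjusted p columns are the authors' comparisons and were not used. Repeated rows (123 per table) were dropped.

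The input scale of 0.855 came from genes with 1 read in 1 library. Means above 50 in both tables were required. Reads per library were solved as whole numbers from both means of a gene, for means below 250 without further limits and for higher means up to 1200 within a 2-fold window of replicates; the method was tested on simulated data. It solved 27101 genes, 5633 of them above the minimum. limma 3.58.1 (R 4.3.3) tested log2(adjusted reads + 1) on these, a step added after the data were seen, with Benjamini-Hochberg adjustment over all 5633. Python 3.11.15 was used otherwise. Intervals were not given because reads are not independent molecules.

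Members and lists were chosen with earlier results of these data known. Named genes were the 6 highest and lowest ratios, the 3 highest and lowest levels, all paralogs, all members below the minimum, and FAU; genes that the rule also named are not reported here by name. Genes given for their roles (RPL5, RPL11, RPS6, RPS19, RPS27A, RPLP0, RPLP2) and single genes of the lists beside the members were chosen after their values were seen. HNRNPA1, on the TOP list, was not in both tables. Alternatives were other minimums, scaling, cut-offs and member subsets.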

Additional observations from a re-analysis of the deposited data

How the results depend on the processing

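The median log2 mean ratio of the members lay between 1.86 and 1.90 over the alternatives run for it. These were other minimums, median centring, no members with an expressed pseudogene, and 1 read less in every library. The subunit medians were run with other minimums, no members with an expressed pseudogene, and no suffix paralogs. They lay between 1.82 and 1.85 for the large and between 1.89 and 1.93 for the small subunit. Median centring and 1 read less were not run for them. The 6 paralog differences did not depend on centring or the minimum, since both cancel or leave these genes in. The count of 81 members past the cut-off moved with the cut-off, to 20 at 4 (0.617% of all genes), and to 52 of 54 without members that have a pseudogene above the minimum, because fewer members were counted. At 1.5 it was 83, against 23.6% of all genes. The median of the members less that of the background was 1.90 over all genes and 1.80 over protein coding genes. Without each library in turn, an alternative added after seeing the data, RPL39L gave 1.10 to 1.25 and RPL26L1 1.497 to 1.73 for PABPC RIP over input on the log2 scale (limma adjusted p at most 2.51e-05 and 6.02e-06). For PABPN RIP over input they gave -0.35 to -0.18 (adjusted p 0.0327 to 0.261) and -1.32 to -1.08 (at most 0.000467). Leaving out a library was not possible for members with high means, whose replicates could not be separated. No paired analysis was possible because the recovered libraries carry no replicate numbers and the deposited means pool the replicates.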
